A study of Mus musculus with 13 samples.

Results

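The voltage-gated ion channel genes were 108 protein_coding genes of the comparison table of Ikzf1 and control RNA-seq, which lists 35734 genes. Their names start with Kcn (potassium channels), Scn and a digit (sodium channels), Cacna, Cacnb or Cacng (calcium channels) or Hcn and a digit (cation channels opened by hyperpolarisation), and their reads summed to at least 80 over the 8 RNA libraries. Of 138 genes with such a name, 23 had a mean below 5 normalised counts and were not followed to their reads, and 7 had fewer than 80 reads. The genes nearest to the read minimum were Kcnip4 with 60 reads, Scn7a with 62 and Kcng4 with 70 outside it, and Kcnc4 with 82, Kcns1 with 83 and Scn11a with 96 inside it. The label covers more than voltage-gated channels, because the 9 inward rectifiers (Kcnj) and 10 2-pore channels (Kcnk) have no voltage sensor, and 28 members are auxiliary subunits that form no pore. Pore-forming subunits with a voltage sensor of the Kv, Nav, Cav and HCN types number 53, and calcium- or sodium-activated potassium channels are grouped apart from them.

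The series asks how Ikaros family proteins act in the developing retina, and its RNA arm tested the gain of Ikzf1 (Ikaros, a zinc finger transcription factor) in late retinal progenitors. Retinal cells of CD1 mice at postnatal day 0 were dissociated and transfected with an Amaxa kit, either with GFP (control, 4 libraries) or with Ikzf1-IRES-GFP (Ikzf1, 4 libraries), cultured for 9 h and sorted for GFP. Each control replicate held 400000 cells and each Ikzf1 replicate 300000 cells. Both groups thus went through dissociation, transfection, plating and sorting, the Ikzf1 cells differed in carrying the transgene beside GFP, and the labels name the replicates as biological without giving the animals or litters behind them.

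Ion channels set the resting potential of a cell and carry its electrical signals. Pore-forming alpha subunits of the Kv, Nav and Cav types carry voltage sensors and open on depolarisation, while HCN channels open on hyperpolarisation, and auxiliary subunits alter their traffic and gating. In the retina, ganglion cells fire sodium action potentials, whereas photoreceptors and bipolar cells signal mainly with graded potentials and calcium entry at ribbon synapses, and progenitors already hold potassium and calcium channels.

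The libraries held 21.4 to 30.5 M estimated read pairs, and values are given as CPM, read counts scaled to the size of each library. The controls held 75.1 ± 7.76 CPM of Ikzf1 itself (chromosome 11, GRCm38), and its level with the transgene, whose reads count toward it, was 183100 ± 7379 CPM (SD, n = 4 each). The cells are labelled as retinal progenitors, and all 14 progenitor markers were detected, at a summed 2815 to 2989 CPM in the controls and 2478 to 2514 CPM in the Ikzf1 libraries. Markers of other retinal cells were present too. Of the photoreceptor markers, 12 of 15 tested were lower with Ikzf1 and 0 higher, and their sum went from 582.5 to 682 CPM in the controls to 301.6 to 338.7 CPM. Of the ganglion cell markers, 5 of 12 were higher and 6 lower, among them Pou4f1 with a log2 difference of 2.05 and Nefl with -2.64. In the other lists, the members tested that were higher and lower were 0 and 7 of 12 for horizontal and amacrine cells, 2 and 4 of 7 for bipolar cells, 1 and 5 of 10 for Müller glia, 0 and 1 of 4 for astrocytes, 0 and 1 of 4 for pigment epithelium, 0 and 2 of 7 for endothelial cells and pericytes, 0 and 0 of 3 for microglia and blood, and 0 and 1 of 2 for lens. Over all tested genes, 29.4% were called higher and 29.9% lower. Rpe65 of the pigment epithelium was listed at 0. In these bulk samples, fewer cells of a type and less RNA per cell cannot be told apart.

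The question was which channel genes differed after Ikzf1 was added. Of the 108 channel genes, 34 rose and 41 fell after Ikzf1 with an adjusted p under 0.05 (edgeR quasi-likelihood test with Benjamini-Hochberg adjustment over 15542 genes), and 33 made no call. These are 69.4% of the channel genes, beside 59.3% of all tested genes (29.4% higher and 29.9% lower) and 61.6% of the protein_coding genes with at least 80 reads. The size of the differences stood further from the background than their number. Of the channel genes, 17 rose by 1 or more in log2 (15.7%, beside 4.92% of all tested genes) and 19 fell by as much (17.6%, beside 6.43%). The median absolute log2 difference was 0.68 over the channel genes and 0.28 over the protein_coding genes with at least 80 reads, while the signed medians were -0.12 and 0.00.

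Channel genes have low counts in these cells, and low counts spread more, so the comparison was repeated by level. Among genes with a mean of 2 to 10 CPM, 20 of 44 channel genes (45.5%) were called with a change of at least 1, beside 21.1% of the protein_coding genes at that level. Below 2 CPM the shares were 13 of 33 (39.4%) and 24.4%, and at 10 CPM and above 3 of 31 (9.68%) and 6.28%. The 4 Ikzf1 libraries lay entirely above the 4 controls for 33 channel genes and entirely below them for 34, beside 26.5% and 26.7% of all tested genes.

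Pore-forming subunits with a voltage sensor of the Kv, Nav, Cav and HCN types included 22 higher and 16 lower of 53. Inward rectifiers and 2-pore channels included 6 higher and 8 lower of 19. Auxiliary subunits, with the beta subunits of BK channels (Kcnmb) counted among them, included 5 higher and 14 lower of 28, with a median log2 difference of -0.34 beside 0.13 for the voltage-sensing pores. The shares called were 71.7%, 73.7% and 67.9%, beside 59.3% of all tested genes (29.4% higher and 29.9% lower), the background for each family count below. In each of the 3 sets, some calls ended under the alternative fits of the closing section, such as Kcnd2, Kcnk6, Kcnip1 and Kcne2. Within most families some members were higher and others lower, as the plot of differences by family shows.

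**Figure D1:**
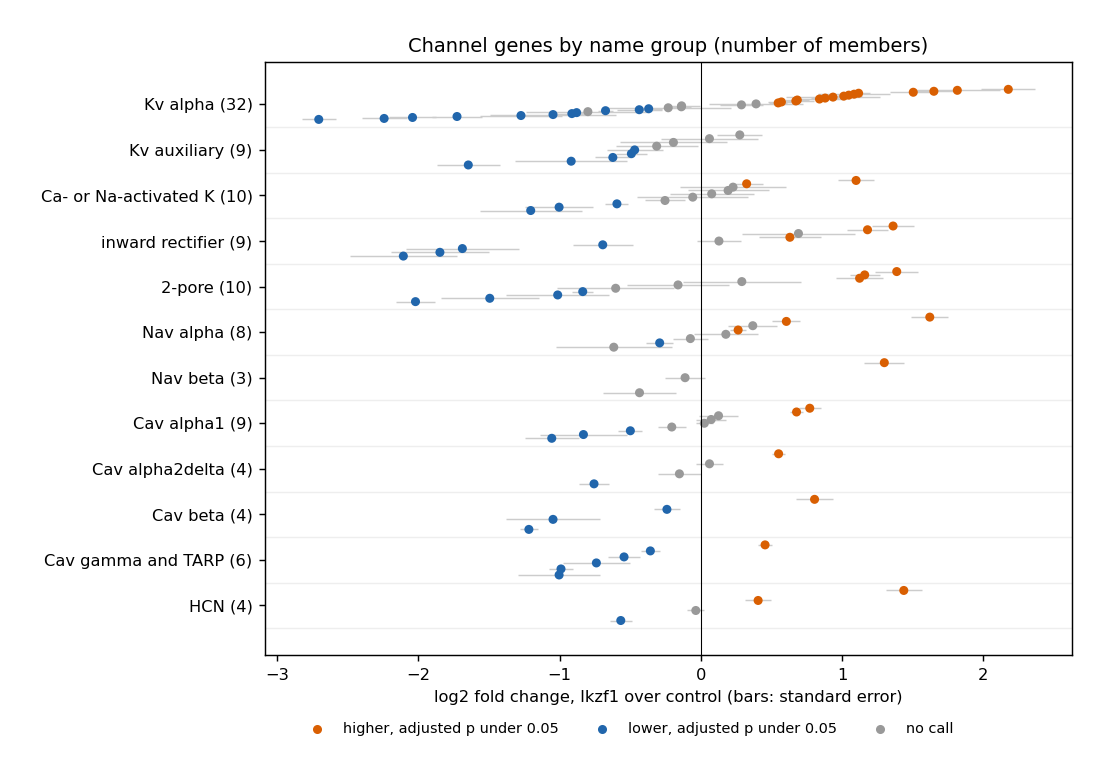
Log2 difference between Ikzf1 and control libraries (x axis) for each of the 108 channel genes, grouped by family on the y axis with the number of members; each point is 1 gene, bars are standard errors from edgeR and colour gives the call. Kv alpha subunits span from -2.71 to 2.18, and the auxiliary Kv subunits hold 0 higher and 5 lower genes.

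Levels in the control cells differed widely between the channel genes. Expressed per transcript length as TPM, the channel genes ranged from 0.19 to 44 TPM in the controls with a median of 2.19, and 17 reached 10 TPM while 30 stayed under 1 TPM. Cacna1h, the pore of a T-type calcium channel that opens near rest, led with 44.0 ± 5.29 TPM, followed by the calcium channel beta subunit Cacnb3 with 38.9 ± 1.38 TPM and the gamma-type subunit Cacng7 with 36.2 ± 0.937 TPM (SD, n = 4). Cacng4 at 34.8 ± 1.86 TPM, Cacna2d1 at 32.3 ± 0.944 TPM and the 2-pore channel Kcnk1 at 29.8 ± 1.64 TPM came next. Cacnb3 lay within 1 SD of Cacna1h's mean, Cacng7's mean lay within 1 SD of Cacng4's, and Scn8a, the highest sodium channel gene, stood at 29.5 ± 2.15 TPM beside Kcnk1. Of these most abundant genes, Cacna1h made no call, with 131, 113, 122 and 121 CPM in the controls and 114, 126, 114 and 140 CPM in the Ikzf1 libraries (log2 difference 0.02, SE 0.06, edgeR adjusted p 0.748).

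**Figure D2:**
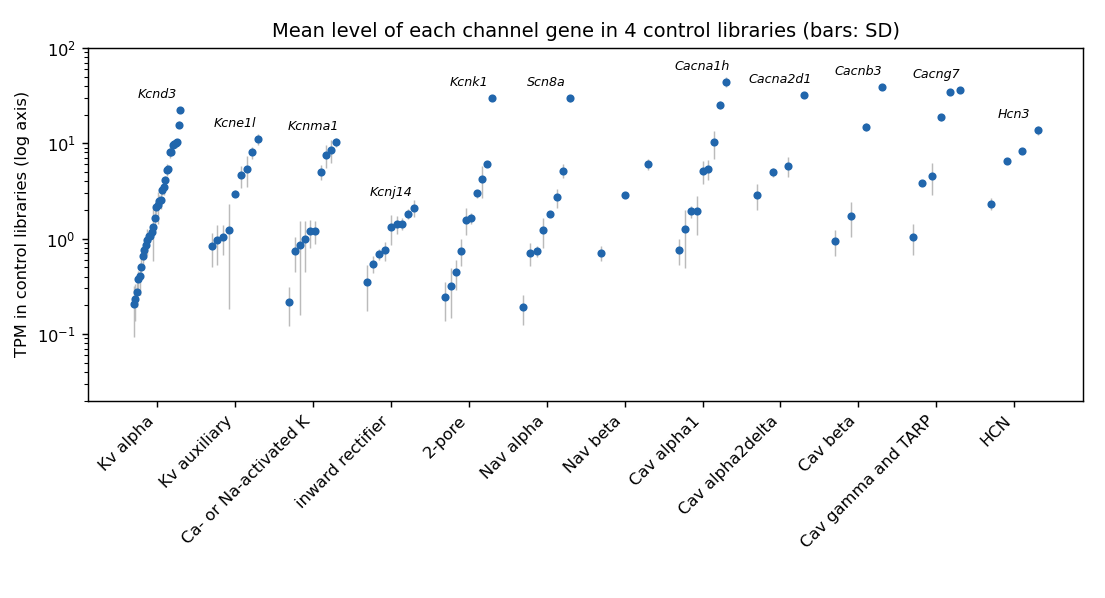
Mean control level in TPM (log axis) of each channel gene by family, with the SD over 4 libraries; the gene with the highest mean is named in most families. Cacna1h at 44.0 TPM is the highest point, and the Kv alpha family reaches its highest level at Kcnd3.

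Among the 32 Kv alpha subunits, 15 were higher and 11 lower. Kcna1, which encodes Kv1.1, a low-threshold delayed rectifier of axons, showed the largest fall of all channel genes. The controls held 14.5, 17.1, 16.3 and 14.6 CPM of Kcna1 and the Ikzf1 libraries 2.14, 2.21, 2.77 and 2.42 CPM. All 4 Ikzf1 values were far below every control value, and the log2 difference was -2.71 (SE 0.12, edgeR adjusted p 2.16e-17). Other Kv1 genes did not share one direction. Kcna5 (Kv1.5) fell from 4.96 to 6.75 CPM in the controls to 1.41 to 2.12 CPM, and Kcna2 (Kv1.2), a frequent partner of Kv1.1, fell from 13.6 ± 0.85 to 7.22 ± 0.905 CPM. Kcna3 (Kv1.3) and Kcna4 (Kv1.4) rose, by 0.88 and 0.84 on the log2 scale, and Kcna6 made no call at -0.14.

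The KCNQ channels produce the M current, a slow potassium current that holds back repetitive firing. Kcnq5 rose from 2.60, 1.67, 2.05 and 2.17 CPM in the controls to 6.71, 5.17, 6.80 and 5.48 CPM, a log2 difference of 1.5 (SE 0.17, edgeR adjusted p 7.87e-09). Kcnq3, a subunit of the neuronal M channel, rose by 1.01 from 5.10 ± 0.217 to 10.3 ± 1.89 CPM. In both genes the lowest Ikzf1 library lay above the highest control. Kcnq5 shares its strand with the overlapping pseudogene Gm7658, so reads of the pair could have been split between them. Kcnq1, the KCNQ gene known best from the heart and from epithelia, was too low to be followed.

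The Kcnh genes encode the EAG, ERG and ELK potassium channels, and 4 of 8 were higher and 2 lower. Kcnh3 (Kv12.2, an ELK channel of forebrain neurons) showed the largest rise among the channel genes in read counts, while with an offset for transcript length it stood at 1.75, behind Kcng2 at 2.44. Its controls held 1.40, 1.32, 1.28 and 1.68 CPM and its Ikzf1 libraries 5.04, 8.97, 5.71 and 6.12 CPM, with no overlap and a log2 difference of 2.18 (SE 0.19, edgeR adjusted p 6.76e-11). Kcnh3 overlaps Mcrs1 on the other strand, and strand use in counting is not given in the sources used here. The other 2 ELK genes split, as Kcnh4 (Kv12.3) rose by 1.08 and Kcnh8 (Kv12.1) fell from 7.23, 6.20, 6.81 and 7.37 CPM to 1.45, 1.37, 1.65 and 1.35 CPM. Kcnh8's log2 difference was -2.24 (SE 0.16, edgeR adjusted p 8.13e-13). Of the ERG genes, whose channels shape repolarisation, Kcnh2 rose from 16 ± 0.731 to 33.1 ± 3.18 CPM and Kcnh7 from 5.68 ± 0.779 to 9.05 ± 1.10 CPM, and Kcnh6 stood at a log2 difference of 0.39 with no call. The EAG gene Kcnh5 fell by 1.27 and Kcnh1 made no call at 0.29.

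Modifier subunits form no working channel alone but join Kv2 channels. Kcnf1 fell from 6.71, 9.19, 8.31 and 10.4 CPM to 2.69, 1.72, 1.77 and 2.21 CPM, a log2 difference of -2.04 (SE 0.16, edgeR adjusted p 1.04e-11). Kcng2 moved the other way, from 0.679, 0.396, 0.366 and 0.524 CPM to 2.01, 1.33, 1.85 and 1.78 CPM (1.82, SE 0.30). Both groups were apart in both genes, although Kcng2 rested on as few as 9 reads in a library. Their partner Kcnb2 (Kv2.2), at 10.5 ± 1.59 CPM in the controls, rose by 0.57. Kcnv2, a modifier known from photoreceptors, fell by 0.37 with overlapping groups, from 14.2 ± 1.05 to 11.1 ± 1.44 CPM.

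Kcnd3 (Kv4.3), which carries a transient A-type current, was the Kv alpha gene with the highest level in the controls at 22.5 ± 1.37 TPM. It fell from 77.1, 71.4, 71.2 and 69.9 CPM to 48.1, 40.6, 47.5 and 45 CPM (log2 difference -0.68, SE 0.06, edgeR adjusted p 2.00e-11), with no overlap. Kcnd1 fell by 0.44, and Kcnd2 was called higher from a low level (0.623 ± 0.260 to 1.2 ± 0.315 CPM, adjusted p 0.0179 in edgeR). Of the Kv3 genes of fast firing, Kcnc1 fell from 37.8 ± 2.47 to 20.6 ± 0.704 CPM and Kcnc2 made no call at -0.14. Without control replicate 1 the call for Kcnd1 was lost (highest adjusted p over the alternatives 0.0904), and leaving out control replicate 2, Ikzf1 replicate 3 or Ikzf1 replicate 4 ended the call for Kcnd2, with log2 differences of 0.70 to 0.86.

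**Figure D3:**
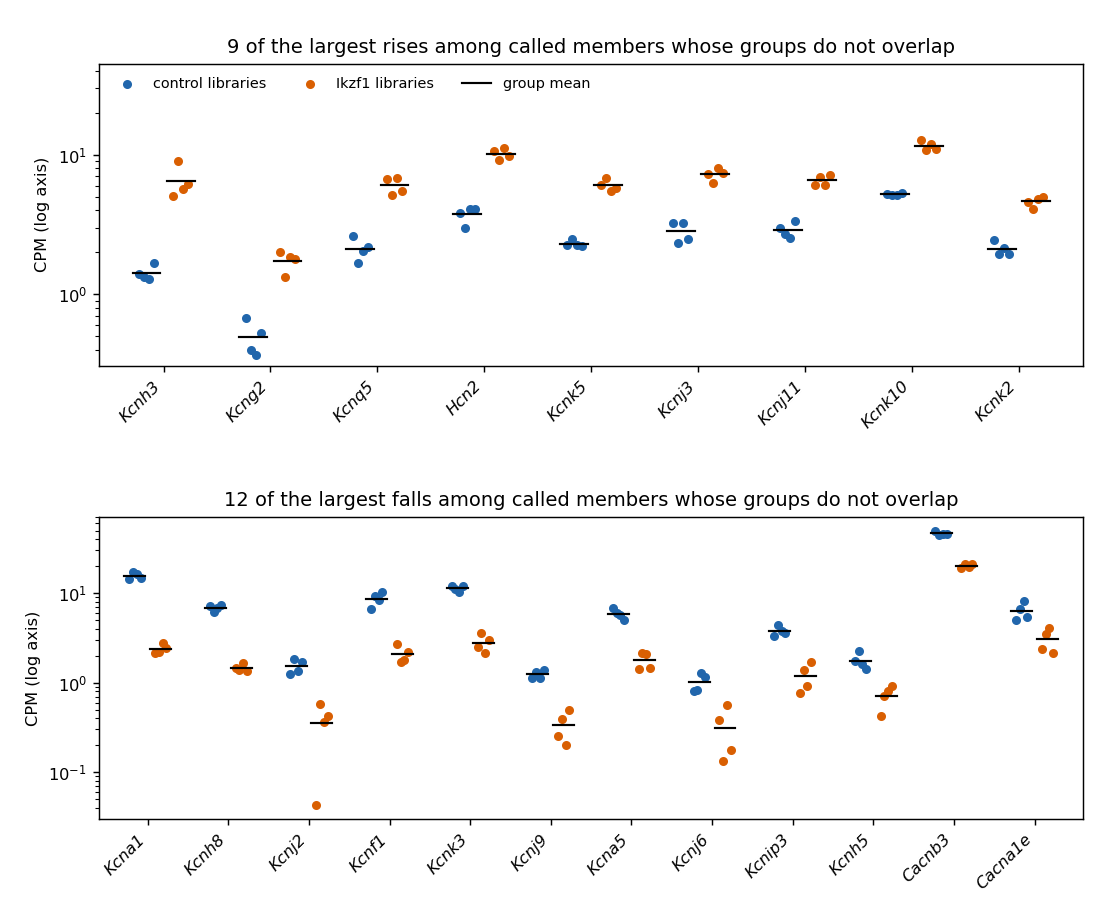
CPM on a log axis in each of the 4 control and 4 Ikzf1 libraries for called channel genes with large rises (top) and falls (bottom) whose groups do not overlap; points are libraries and bars group means. Kcna1 drops from 14.5 to 17.1 CPM to 2.14 to 2.77 CPM, and 1 Ikzf1 library of Kcnj2 lies near 0.0427 CPM.

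Auxiliary Kv subunits were lower or made no call, with 5 of 9 lower and 0 higher. Kcnip3 encodes KChIP3, a calcium-binding partner of Kv4 channels that is also known as the transcriptional repressor DREAM. It fell from 3.35, 4.40, 3.81 and 3.56 CPM to 0.769, 1.37, 0.925 and 1.71 CPM (log2 difference -1.65, SE 0.22, edgeR adjusted p 2.74e-07), and all Ikzf1 libraries were below all controls. Kcne1l, the subunit of this family with the highest control level (11.1 ± 1.51 TPM), fell by 0.62 and Kcnab2, a beta subunit of Kv1 channels, by 0.49. Kcnip1 and Kcne2 were called lower with overlapping groups, at adjusted p values of 0.0469 and 0.0479 in edgeR. The calls for Kcnip1 and Kcne2 ended under 8 and 9 of the 16 alternatives, each of which covered most of the single libraries left out.

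Of 10 calcium- or sodium-activated potassium channel genes, 2 were higher and 3 lower. Kcnmb4, the neuronal beta subunit of the large-conductance BK channel, rose from 3.51, 4.05, 3.95 and 4.61 CPM to 7.73, 8.88, 9.41 and 8.58 CPM (log2 difference 1.10, SE 0.13, edgeR adjusted p 1.45e-08). Its pore gene Kcnma1 fell from 28.9, 29.2, 28.9 and 27.3 CPM to 20.8, 14.9, 20.4 and 19.5 CPM (-0.59, SE 0.08, edgeR adjusted p 3.94e-07). The groups were apart in both. With an offset for transcript length the fall of Kcnma1 was no longer called (-0.25, edgeR adjusted p 0.134), so the difference in direction between pore and beta subunit holds for read counts. Kcnn4, the intermediate-conductance channel better known from blood cells, fell by 1.21 from 1.18 ± 0.371 CPM, and the sodium-activated Kcnt2 fell by 1.00 from 2.14 ± 0.110 CPM. Kcnn1, a small-conductance SK channel gene, was called higher by 0.32 with overlapping groups. That call ended with the length offset and without control replicate 3, Ikzf1 replicate 3 or Ikzf1 replicate 4.

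Inward rectifiers pass potassium more easily into the cell and hold it near rest. Of 9 Kcnj genes, 3 were higher and 4 lower. The G protein-gated members, which are opened by receptors such as GABA-B, differed among themselves. Kcnj3 (GIRK1) rose from 3.23, 2.33, 3.22 and 2.48 CPM to 7.30, 6.27, 8 and 7.41 CPM, a log2 difference of 1.36 (SE 0.15, edgeR adjusted p 5.03e-09). Kcnj9 (GIRK3) fell from 1.12, 1.32, 1.14 and 1.40 CPM to 0.256, 0.398, 0.201 and 0.499 CPM (-1.85), and Kcnj6 (GIRK2) fell from 1.02 ± 0.237 to 0.315 ± 0.199 CPM (-1.69). Groups were apart in all 3, so GIRK1 stood higher while both of its neuronal partners stood lower. The 2 falls rested on few reads, as few as 5 in a library for Kcnj9 and 3 for Kcnj6. Kcnj2 (Kir2.1), a strong inward rectifier, fell from 1.24, 1.85, 1.35 and 1.71 CPM to 0.0427, 0.574, 0.362 and 0.427 CPM, where the lowest library held 1 read (-2.11, SE 0.38, edgeR adjusted p 2.37e-05). Kcnj11 (Kir6.2), the pore of the ATP-sensitive channel, rose by 1.18. Kcnj10 (Kir4.1), the potassium channel of mature Müller glia, made no call at 0.13, and Kcnj14, the family's highest gene by control TPM (2.10 ± 0.429), fell by 0.69. Kcnj13, the channel of the pigment epithelium, was too low to be followed.

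The 2-pore channels carry background potassium current. Of 10 genes, 3 were higher and 4 lower. The mechanosensitive TREK genes Kcnk2 and Kcnk10 rose together. Kcnk10 (TREK-2) went from 5.19, 5.15, 5.12 and 5.34 CPM to 12.9, 10.8, 11.9 and 11 CPM (log2 difference 1.16, SE 0.11, edgeR adjusted p 2.22e-10), and Kcnk2 (TREK-1), which overlaps a pseudogene on its strand, rose by 1.12. The acid-sensitive TASK genes fell. Kcnk3 (TASK-1) went from 12.1, 11.1, 10.4 and 11.9 CPM to 2.48, 3.62, 2.13 and 2.99 CPM (-2.02, SE 0.14, edgeR adjusted p 3.44e-13), and Kcnk9 (TASK-3) from 1.57 ± 0.692 to 0.551 ± 0.199 CPM (-1.50, SE 0.35) with 1 control inside the Ikzf1 range. The alkaline-activated Kcnk5 (TASK-2) rose by 1.39. Kcnk1 (TWIK-1), the 2-pore gene with the highest control level, fell by 0.84 from 29.9 ± 1.39 to 16.8 ± 1.37 CPM.

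Sodium channels carry the upstroke of the action potential. Of 8 alpha subunits, 3 were higher and 1 lower. Scn9a (Nav1.7), best known from sensory neurons, rose from 8.75, 7.21, 9.55 and 7.93 CPM to 12.6, 13.2, 13.1 and 12.1 CPM (log2 difference 0.61, SE 0.10, edgeR adjusted p 6.26e-06), with no overlap. Scn8a (Nav1.6), the main channel of mature axon initial segments and by far the highest here, was called higher by 0.26 (SE 0.06, edgeR adjusted p 0.000482), from 72.7 ± 4.49 to 87.2 ± 8.11 CPM with overlapping groups. Scn2a (Nav1.2) made no call at -0.07 and Scn1a (Nav1.1) none at 0.37, while Scn3a (Nav1.3), the embryonic channel, was called lower by 0.29 (adjusted p 0.0105 in edgeR). Without control replicate 1 the adjusted p for Scn3a was 0.0579. Of the beta subunits, which anchor and modulate the pores, Scn2b and Scn3b made no call, at -0.43 and -0.11.

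Calcium channel pores showed smaller differences, with 2 of 9 higher and 3 lower. Cacna1b (Cav2.2, the N-type channel of many presynaptic terminals) rose from 58.2, 58.7, 64.2 and 63.2 CPM to 92.3, 100, 97.6 and 100 CPM (log2 difference 0.68, SE 0.05, edgeR adjusted p 1.09e-12). Cacna1d (Cav1.3), an L-type channel, rose by 0.77 from 15.4 ± 1.25 to 26.2 ± 2.11 CPM, and overlaps 2 genes on the other strand. The R-type Cacna1e (Cav2.3) fell from 5.07, 6.64, 8.09 and 5.49 CPM to 2.39, 3.54, 4.10 and 2.17 CPM (-1.06, SE 0.19), and the T-type Cacna1g (Cav3.1) fell by 0.50. Groups were apart in all 4. Cacna1c (Cav1.2) made no call at 0.07 and the P/Q-type Cacna1a (Cav2.1) none at -0.21.

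Photoreceptor ribbon synapses use a channel of Cacna1f (Cav1.4), Cacnb2 and Cacna2d4. All 3 genes were called lower. Cacna2d4 fell from 12.7, 13.1, 10.9 and 9.82 CPM to 6.83, 6.54, 7.24 and 6.84 CPM (log2 difference -0.76, SE 0.11, edgeR adjusted p 7.32e-07), with no overlap. Cacnb2 fell from 1.06 ± 0.275 to 0.510 ± 0.118 CPM, and Cacna1f from 1.35 ± 0.384 to 0.760 ± 0.234 CPM with overlapping groups. The call for Cacna1f ended without control replicate 1 (-0.63, adjusted p 0.109 in edgeR) and without Ikzf1 replicate 4 (-0.66, adjusted p 0.0919). Beside these genes stand the photoreceptor markers, 12 of 15 of which were lower, including Crx by -1.05 and Nrl by -0.93 on the log2 scale, and their part in the result was not tested. The other alpha2delta gene with a call, Cacna2d1, which carries calcium channels to the cell surface, rose from 88.6 ± 3.75 to 130 ± 5.45 CPM.

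All 4 Cav beta genes, which bring the pores to the membrane, were called from read counts, 3 lower and 1 higher. Cacnb3, the most abundant, fell from 50.0, 45.1, 45.5 and 46.0 CPM to 19.1, 20.9, 19.4 and 20.9 CPM (log2 difference -1.22, SE 0.06, edgeR adjusted p 5.70e-16). Cacnb4 moved from 4.71, 4.88, 5.38 and 4.02 CPM up to 9.78, 8.22, 7.36 and 7.83 CPM (0.80, SE 0.13, edgeR adjusted p 4.21e-06). In both genes the groups were apart, but with an offset for transcript length the call for Cacnb4 ended (0.27, edgeR adjusted p 0.404). Cacnb1 was called lower by 0.24 with overlapping groups, and the call ended with the length offset and without control replicate 1 or 3 or Ikzf1 replicate 1 or 3. The Cacng genes encode gamma-type subunits, most of which are TARPs that carry AMPA receptors, and 5 of 6 were lower. Cacng3 fell from 21.0, 19.7, 19.2 and 19.8 CPM to 11.2, 9.94, 10.3 and 8.76 CPM (-0.99, SE 0.09, edgeR adjusted p 6.39e-11). Cacng5, Cacng8, Cacng2 and Cacng7 fell by 1.00, 0.74, 0.54 and 0.36, and Cacng4 rose from 60 ± 1.69 to 82.2 ± 3.29 CPM. Summed over the family, the reads were 127 to 136.3 CPM in the controls and 128.6 to 134 CPM in the Ikzf1 libraries. Without control replicate 1 the call for Cacng8 ended, at a highest adjusted p of 0.102.

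HCN channels carry a pacemaker current. Hcn2 rose from 3.79, 2.99, 4.06 and 4.09 CPM to 10.6, 9.15, 11.2 and 9.72 CPM (log2 difference 1.44, SE 0.13, edgeR adjusted p 7.84e-11), with no overlap. Hcn3 rose by 0.41 and Hcn4 fell by 0.57. By level per length, Hcn3 stood at 13.7 ± 1.44 TPM in the controls, ahead of Hcn4 with 6.58 ± 0.130 TPM and Hcn2 with 2.31 ± 0.323 TPM.

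**Figure D4:**
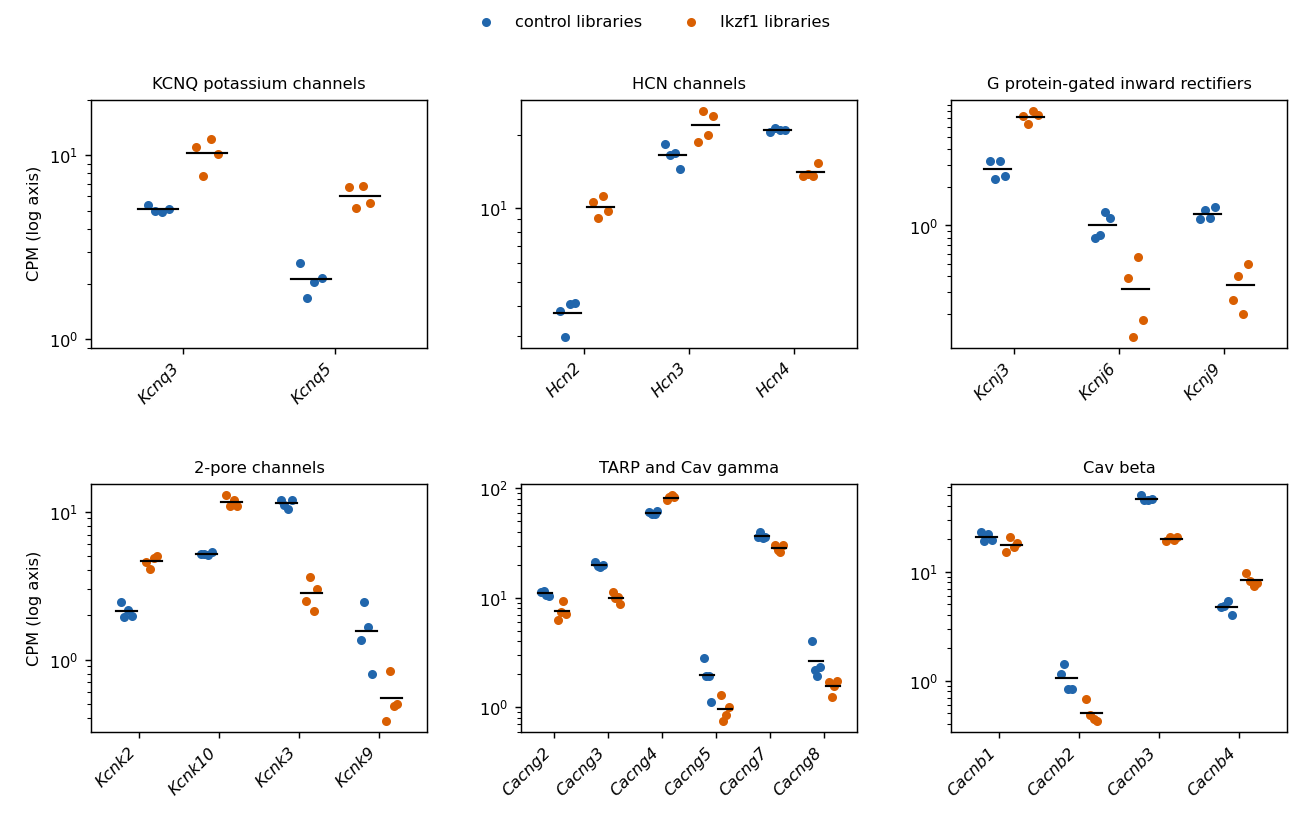
CPM on log axes in the 4 control and 4 Ikzf1 libraries for members of 6 families, each point 1 library and each bar a group mean. Kcnq3 and Kcnq5 sit higher in the Ikzf1 libraries, whereas HCN, GIRK, 2-pore, Cacng and Cav beta genes hold members on both sides, such as Kcnj3 at 6.27 to 8 CPM against Kcnj9 at 0.201 to 0.499 CPM with Ikzf1.

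Genes outside the channel families were read from lists of their partners and regulators. Of 38 channel partners tested, which anchor, traffic or gate the pores, 16 were higher and 11 lower. These are 71.1%, beside 59.3% of all tested genes (29.4% higher and 29.9% lower). Stac, an adaptor of L-type calcium channels, rose by 1.64, Sptbn4, the beta IV spectrin under axon initial segments, by 1.44, and Lgi2, a secreted ligand of synaptic ADAM proteins, by 1.41. Unc79, a subunit of the NALCN sodium leak complex, fell by 1.41, Rem2, a GTPase that inhibits calcium channels, by 1.38, and Rimbp2, which ties calcium channels to the active zone, by 1.07. Of 46 other cation and chloride channels, 14 were higher and 16 lower (65.2% called, beside the same 59.3%). Piezo2, a stretch-gated channel, rose by 1.67, Trpc4 by 1.51 and Stim1, the calcium sensor of the endoplasmic reticulum, by 1.17, while Asic4 fell by 1.19, Cnga1, the cyclic nucleotide-gated channel of rods, by 1.04 and Ano2, a calcium-activated chloride channel of photoreceptor terminals, by 1.03. Leaving out control replicate 2 ended the call for Cnga1 (-0.85, adjusted p 0.0752 in edgeR).

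Regulators of channel genes were followed as well. Rest, the repressor that silences many neuronal channel genes outside neurons, made no call, at 107.8 ± 6.93 and 102.8 ± 1.69 CPM (log2 difference -0.07, SE 0.05, edgeR adjusted p 0.215). Its cofactor Rcor2 rose from 106.2 ± 7.56 to 225.6 ± 18.3 CPM. Of the 16 regulators 7 were higher and 5 lower (75% called, beside 59.3% of all tested genes). The neuronal RNA-binding proteins Nova2 and Elavl3 rose by 0.76 and 0.51, and the splicing regulators Rbfox1 and Rbfox2 fell by 1.05 and 0.98, Rbfox2 from 249.4 ± 1.65 to 126.2 ± 1.95 CPM. Rbfox3 was called lower by 0.51, a call that ended with an offset for transcript length (-0.47, edgeR adjusted p 0.0924). It also ended without control replicate 1, Ikzf1 replicate 1 or Ikzf1 replicate 2 (edgeR adjusted p 0.0681 to 0.146).

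Read counts do not separate transcripts of different length. The estimated shares of the transcripts of several large channel genes had different group means, with a wide spread between libraries in some. No test of these shares was made. For Cacna1a the mean effective length of the transcripts read went from 4111 ± 759.7 bases in the controls to 2695 ± 652.7 bases in the Ikzf1 libraries (SD, n = 4). Its transcript of 7503 bases held 34.3 ± 2.66% of the gene's TPM in the controls and 8.65 ± 10.5% with Ikzf1. Shares within the gene are given because the transgene's reads take part of the TPM of the Ikzf1 libraries. Its transcript of 249 bases was found mainly in Ikzf1 replicate 2 (4.775 TPM, beside 0.6809, 0.7508 and 0 in the others) and in no control. With an offset for length, the log2 difference of Cacna1a was 0.44 (SE 0.23, edgeR adjusted p 0.136) in place of -0.21, so its direction depended on the length correction. For Kcnma1 the mean length went from 5309 ± 713.1 to 4204 ± 315.1 bases, and its transcript of 12094 bases from 30.6 ± 6.37% to 23.1 ± 3.02% of the gene's TPM. Kcnma1 lost its call with the offset, and so did Cacnb4, with a mean length of 5811 ± 2252 bases in the controls and 7769 ± 47.9 bases with Ikzf1. Single controls weigh on the Cacnb4 mean. Its transcript of 208 bases had TPM in control replicate 2 alone (1.315), and those of 7872 and 7981 bases were at 0 in control replicate 1. Kcnt2 stood at -0.77 (edgeR adjusted p 0.0554) with the offset. Scn3a lost its call at nearly the same size, -0.30 beside -0.29 (edgeR adjusted p 0.162). With the offset, 32 channel genes were called higher and 35 lower. The lower ones include Kcnc2 (-0.21, edgeR adjusted p 0.0367), which made no call from read counts. Large differences moved little in Kcna1 (-2.75 with the offset), Kcnh8 (-2.11), Kcnk3 (-2.05), Kcnq5 (1.46) and Hcn2 (1.45).

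**Figure D5:**
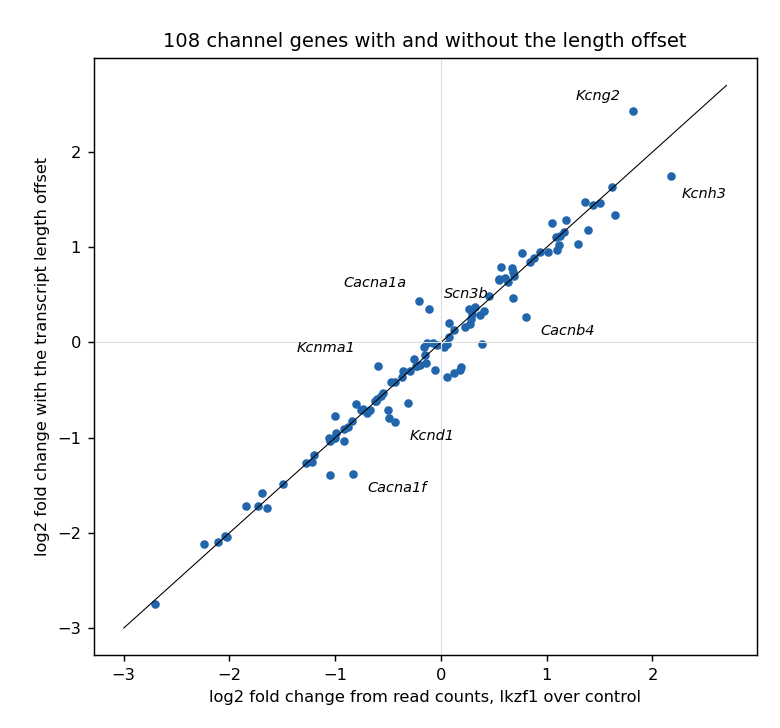
Log2 difference between Ikzf1 and control libraries for the 108 channel genes from read counts (x axis) and with an offset for the mean transcript length (y axis); each point is 1 gene and the line marks equality. Most points lie near the line, and Cacna1a lies above it, at -0.21 on the x axis and 0.44 on the y axis.

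The members span long stretches of genome, with a median of 55.3 kb beside 24.7 kb for the protein_coding genes with at least 80 reads. Of the 36 shortest, up to 25 kb, 11 were higher and 17 lower, and of the 36 longest, from 130 kb, 14 were higher and 9 lower. Across genes, which are not independent replicates and share the same 8 libraries, the Spearman correlation of span with the log2 difference was 0.16 in the channel genes and 0.06 in the protein_coding genes with at least 80 reads. Among the channel genes, 9 overlap a gene on the other strand and 2 a gene on the same strand.

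The authors' deposited table, made with another tool and with length correction, called 31 channel genes higher and 32 lower. In it and in the edgeR fit here, 62 genes were called in the same direction and 0 in opposite directions, 1 (Kcnc2) was called in the authors' deposited table alone and 13 in the edgeR fit alone. Kcnh3 had a log2 difference of 1.38 in the authors' deposited table, below the 1.93 of Kcng2 there.

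Promoters were compared because members of 1 family moved together while others split. RefSeq promoters (GRCm38.p6) were matched by symbol for 76 of the 108 channel genes, and the 250 bases before each start were searched on both strands for TGGGAA, the core of the Ikaros site. It was found in 17 of 76 (22.4%), beside 21.6% of 32851 promoters of the same length in the table. By call it was found in 2 of 21 higher genes (9.52%), 9 of 31 lower genes (29%) and 6 of 24 with no call (25%). TTCAGCACC, the left part of the RE1 site that Rest binds, was found in 1 of 76 (1.32%), beside 0.301% of all promoters. The channel promoters were rich in CG dinucleotides, with a median of 12 in 250 bases (16 in higher genes, 10 in lower genes) beside 6 over all promoters.

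Sequences are printed for a promoter without the motif, that of the called rise of largest size whose RefSeq start lay within 10 bases of the gene start of the comparison table (37 of the 76 did), and 2 promoters with it, those of the called falls of largest size among genes that hold it, by the same condition. They were chosen after the values were seen. Each runs 5′ to 3′ toward the start site on the strand of the gene, and capitals mark TGGGAA or its reverse complement TTCCCA. A match is a run of letters and no evidence of binding. The Kcnq5 promoter (chr1:21961943-21962192, minus strand) holds 0 matches and 14 CG dinucleotides.

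Kcnq5: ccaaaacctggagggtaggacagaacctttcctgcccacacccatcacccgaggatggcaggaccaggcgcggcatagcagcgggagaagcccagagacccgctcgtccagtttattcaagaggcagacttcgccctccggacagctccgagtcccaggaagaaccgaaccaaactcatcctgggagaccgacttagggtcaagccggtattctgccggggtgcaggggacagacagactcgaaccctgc

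The Kcnj9 promoter (chr1:172329323-172329572, minus strand) and the Kcnip3 promoter (chr2:127522095-127522344, minus strand) hold 2 matches each, with 5 and 4 CG dinucleotides.

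Kcnj9: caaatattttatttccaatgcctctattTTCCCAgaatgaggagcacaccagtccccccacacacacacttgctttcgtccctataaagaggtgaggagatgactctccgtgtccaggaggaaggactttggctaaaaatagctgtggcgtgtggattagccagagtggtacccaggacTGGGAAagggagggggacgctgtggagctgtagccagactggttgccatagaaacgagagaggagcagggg

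Kcnip3: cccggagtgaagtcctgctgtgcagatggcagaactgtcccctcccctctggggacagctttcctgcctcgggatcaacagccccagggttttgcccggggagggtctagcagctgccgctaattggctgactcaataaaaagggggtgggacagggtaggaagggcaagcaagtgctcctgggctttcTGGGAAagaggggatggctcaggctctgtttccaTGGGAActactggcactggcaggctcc

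The printed genes were picked by direction and by the motif, so they show no relation between the 2. Kcnh8, Kcnj2 and Kcnf1, which fell further than Kcnj9 and Kcnip3, have promoters without TGGGAA, and Kcnh2 and Kcnd2, which rose, have promoters with it. Across the matched promoters the motif was nearly as frequent in genes with no call (25%) as in the lower genes (29%).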

How the data were processed

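RNA was measured in 4 control and 4 Ikzf1 libraries, grouped by their titles. The authors' estimated counts per transcript and TPM values were made with Salmon, per the submitters' processing notes and the file headers, with the effective length of each transcript beside them. The authors' deposited comparison table, made with DESeq2 per the same notes, held a mean signal per gene (normalised counts), a log2 fold change and its standard error, a score (Wald) and raw and adjusted p-values, per the file headers. The kit was stranded, per the labels' protocols, and versions, index and strand use are not given in the sources used here. The CUT&RUN peak lists were not used here.

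No file paired transcripts with genes. A gene's mean in the authors' table equals the rounded sum of its transcripts' counts, divided by library factors and relative mean length, averaged over the libraries. The factors were solved from 13 mitochondrial genes (largest relative residual 1.39e-10), and each gene took the run of up to 100 neighbouring transcripts that gave its mean within a relative 5e-09. Of the 16815 genes whose mean reached 5, 16571 were joined (98.5%) and 74 with several runs were left out. After means were moved by a relative 1e-06, 0.488% still found a run. Joined genes held 98.8 to 99% of a library's reads, and all 108 channel genes were among them.

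Counts were summed to genes, rounded, filtered with filterByExpr and scaled by TMM, and compared with the quasi-likelihood test of edgeR 4.0.16 (robust, two-sided, no covariate) with Benjamini-Hochberg adjustment and a threshold of 0.05. Standard errors are the absolute log2 fold change over the square root of F. On data simulated for this comparison with 15199 genes tested, edgeR recovered 88% of 100 genes changed by 1 on the log2 scale and 74.7% of 99 changed by 0.5, with 4.14% false calls. The simulation left most genes unchanged and held no transgene, whereas 59.3% of all tested genes were called in the data. It therefore does not give the rate of false calls in these data. DESeq2 1.42.0 and 15 other alternatives are given in the closing section. P-values measure the spread between these libraries, since the labels do not say which animals they came from. Same-numbered libraries did not deviate together, so the numbers were not used as pairs.

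The members and lists were chosen with earlier results of these data known. Named members are the 12 largest called changes in each direction whose groups do not overlap, per family the highest control TPM and the largest called changes, the 6 highest in TPM, a set of retinal channel genes, and from each other list the 3 largest called changes in each direction and Rest. Members named beyond this rule complete their families and were chosen after their values were seen. Some genes that the rule names are not reported here.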

Additional observations from a re-analysis of the deposited data

Results flagged for a closer look

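In each group of 4 libraries of the named channel genes, the most distant library was compared with the others. In 2 of 104 groups 1 library stood far from the rest, where chance gives about 1 in 20. Control replicate 4 held 27.3 CPM of Kcnma1, below the 28.9 to 29.2 CPM of the other controls and above every Ikzf1 library. Ikzf1 replicate 3 held 3.54 CPM of Scn1a, above the 3.18 to 3.21 CPM of the other Ikzf1 libraries.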

How the results depend on the processing

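Under the 16 alternatives, 61 of the 75 called channel genes were called every time, 14 lost the call under at least 1, 0 changed sign, and 4 others were called under at least 1. The number called was 67 (length offset) to 75, and 68 to 74 with 1 library left out. Over all genes it was 7849 (length offset) to 9276, and 8624 to 9009 with 1 library left out. The replicate number as a block, under which Cacnb1, Kcne2, Kcnip1 and Kcns1 lost their calls, gave 71 channel genes and 8905 genes in all, and same-numbered libraries correlated at -0.0352 to 0.00434, with 0 of 8 closest to their own number. Among channel partners, other channels and regulators together, 62 to 71 of 100 to 102 tested were called beside 69. Genes without a call changed sign as follows. Cacna1h was -0.05 after the length offset and ranged from -0.04 to 0.06 when 1 library was left out, below 0 without control replicate 2 (-0.01) or Ikzf1 replicate 4. Cacna1a was 0.44 after the length offset, and control replicate 4 left out gave it a call (-0.25, edgeR adjusted p 0.0498), and Rest was called without control replicate 1 (-0.11, edgeR adjusted p 0.0439). Kcns1, with at most 0.839 CPM in a library, lost its call under 9 alternatives, and Kcnk6 without control replicate 3 or 4 or Ikzf1 replicate 2. Low counts limit the channel genes, 19 of which had under 1 CPM in the controls. The cause of each change was not tested.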
